A study of Mus musculus with 12 samples.

Results

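On the arrays, 106 genes had a probe that was not above background in Rela-/-Relb-/-Rel-/- mouse embryonic fibroblasts (MEFs), although it was in Rela-/-Nfkb2-/- MEFs and in WT MEFs. For 7 of these genes another probe was above background on every Rela-/-Relb-/-Rel-/- array, so the absence holds for the probe and not always for the gene. RNA was read on 12 Illumina MouseRef-8 v2.0 arrays, 1-colour arrays on which each probe is an oligonucleotide carried by many beads. There were 3 genotypes, each untreated or given 10 ng/ml of TNF for 6 h, with 2 arrays in each of the 6 groups. Rela-/-Relb-/-Rel-/- cells, called the triple mutant, lack the genes of RelA, RelB and cRel, the NFκB subunits that activate transcription. Rela-/-Nfkb2-/- cells, called the double mutant, lack RelA and p100 and keep RelB and cRel genes. WT cells carry none of these deletions. All lines were made from E13.5 embryos of C57BL/6 background and immortalized by the 3T3 protocol. Nothing in the sources says how many lines stand behind a genotype, so a deletion and the history of a line cannot be told apart, and nothing says that the 2 arrays of a group came from separate cultures, so the spread between them may be technical.

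The 106 genes were chosen from these measurements. A probe was taken if it had a gene symbol, a detection p-value under 0.05 on all 4 WT and all 4 double mutant arrays, a detection p-value of at least 0.05 on all 4 triple mutant arrays, and a mean normalized intensity of at least 150 over the 4 WT arrays. The detection p-value is the share of negative control probes on the same array that are as bright as the probe. The brightest such probe stands for its gene. In all 120 probes of 106 genes met the rule, out of 16593 named genes with a probe, and 6432 genes met every part of it except the one on the triple mutant, so the members were 1.65% of those. Turned on the double mutant, with WT and triple mutant arrays above background, the same rule took 15 of 6275 genes (0.239%), and turned on WT, with the minimum set on the double mutant, it took 43 of 6363 genes (0.676%). Since the rule used the levels of all 3 genotypes, levels between genotypes are given here as descriptions without a test. The detection limits treated TNF and untreated arrays alike, so the TNF responses within WT and within the double mutant were tested. The WT minimum is a mean over both, and 7 members reached it with 1 of their WT groups under 150, 3 of them through the TNF arrays (Gm3696, Rbpj and Rtl8a) and 4 through the untreated arrays (Glt8d2, Gab3, Smoc1 and Sgcd).

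NFκB is a family of dimers built from RelA, RelB, cRel, p50 and p52. In resting cells the dimers are held in the cytoplasm by IκB proteins and by p100, the precursor of p52. TNF frees RelA dimers within minutes through the canonical pathway, and the dimers bind κB sites in genes of chemokines, cytokines, survival factors and of the pathway itself. Fibroblasts of the embryo also carry a positional programme, a combination of homeobox, T-box and related transcription factors that differs with the site from which the cells came and is kept in culture.

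The state of the arrays and of the targeted genes bears on the choice. Each array had 11637 to 12599 of its 25697 probes above background. The replicate arrays of WT were closer to each other (SD of the log2 difference of 0.275 and 0.308) than those of the mutants (0.473 to 0.683). Rela read 1051 to 1706 in the triple mutant, 1234 to 1768 in the double mutant and 6236 to 9522 in WT. Relb was above background on 1 of 4 triple mutant arrays (25.3 to 56.6), and read 217 to 689 in the double mutant and 556 to 2209 in WT. Nfkb2 read 108 to 362 in the triple mutant, 133 to 436 in the double mutant and 381 to 1022 in WT, and Rel was at background on all 12 arrays. Whether these probes lie within the deleted parts is not known here. Among fibroblast markers, 7 of 10 were above background on all 4 triple mutant arrays, 9 in the double mutant and 8 in WT. Thy1 and Lum were at background throughout the triple mutant, and Thy1 also in WT.

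Mesothelial and epithelial markers moved with the same contrast. The summed intensities of macrophage, endothelial, muscle and neural crest markers on the triple mutant arrays overlapped those of both other lines. The summed intensity of 6 mesothelial markers was 26682 to 51640 on the triple mutant arrays, where all 6 were above background, against 168 to 356 on the double mutant arrays and 1155 to 1944 on the WT arrays. In the double mutant and in WT, 2 of these 6 were above background on all 4 arrays, and Wt1, Lrrn4 and Upk1b were at background. The summed intensity of 8 epithelial markers was 4001 to 5122 in the triple mutant, with 5 of 8 above background and Krt18, Krt5 and Cldn4 at background, against 274 to 353 in the double mutant and 156 to 166 in WT, with 2 of 8 above background in each. The part of these differences between the lines in the absence of the members was not tested. In RNA of a whole culture, fewer cells that express a gene and less RNA per cell cannot be told apart. No member was on any of the cell type marker lists.

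**Figure D1:**
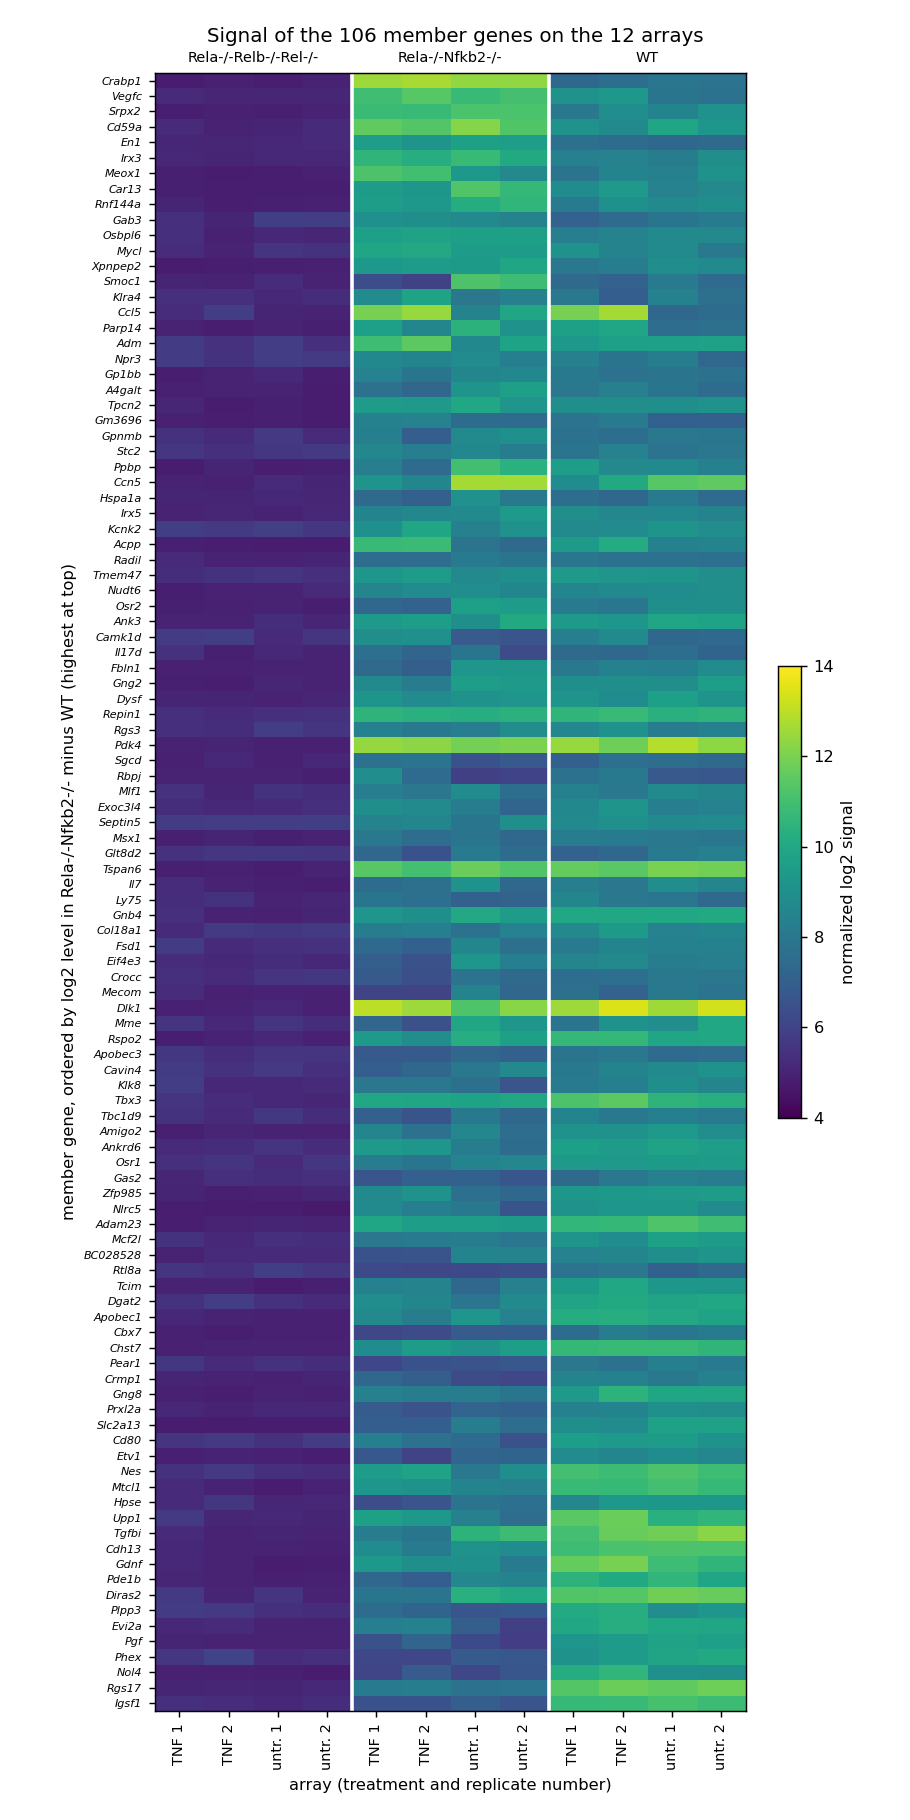
Normalized log2 signal (colour, 4 to 14) of the 106 members (rows) on the 12 arrays (columns: triple mutant, double mutant, WT, with the TNF arrays left of the untreated arrays in each). The triple mutant columns are dark for every member, as the rule requires, while the double mutant is brighter than WT at the top (Crabp1) and dimmer at the bottom (Igsf1).

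Normalized intensities are the authors' background-subtracted values, on a linear scale where background lies near 0 and can be negative. The lowest intensity of any probe above background was 34.3 to 47.9, depending on the array. The members' means over the 4 triple mutant arrays ran from -20.3 to 37.1 with a median of 0.817, and 48 of 106 were negative. No single value there was above 46.1. Their means ran from 58.9 to 5773 (median 359) in the double mutant and from 152 to 8389 (median 443) in WT, so that they were dimmer than the 6432 genes that met the rest of the rule, whose median WT mean was 1228. A lower bound on each difference was taken from the mean log2 signal of the brighter line. It was set against a floor on each triple mutant array, which was the dimmest signal above background or, where higher, that of the probe itself. By this bound the member probes read at least 1.25 to 94.5 times lower in the triple mutant than in the double mutant (median 5.60, at least 10 in 29 genes and under 2 in 10) and at least 2.63 to 132 times lower than in WT (median 7.31, at least 10 in 39 genes). The bounds are for these probes and did not hold on every further probe of the same genes. On its second probe Klra4 was higher in the triple mutant (383) than in WT (103). The second probe of Tbc1d9 was close to even, at 67.7 in the triple mutant and 73.2 in WT. A dim further probe of Tbx3 averaged 29.0 in the triple mutant and 93.9 in WT, beside a bound of 30.9 on its member probe.

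The member with the highest WT level was Dlk1, a paternally expressed imprinted gene whose membrane protein of the Notch ligand type restrains adipocyte differentiation. Its normalized intensities were -8.54 to 3.63 in the triple mutant, 8318 and 5951 after TNF and 2433 and 4771 untreated in the double mutant, and 5943 and 11270 after TNF and 6143 and 10199 untreated in WT. It was at least 132-fold lower in the triple mutant than in WT, the highest bound of all members, and at least 80.6-fold lower than in the double mutant. Pdk4, the kinase that shuts pyruvate dehydrogenase and so spares glucose, followed. Its normalized intensities were -9.83 to -0.00571 in the triple mutant, with 5434 and 4913 after TNF and 3874 and 4210 untreated in the double mutant and 5625 and 3544 after TNF and 7569 and 5054 untreated in WT, and its WT and double mutant arrays overlapped. Tspan6, a tetraspanin of the membrane, showed the same picture, with -13.9 to -5.75 in the triple mutant, 2668 and 2055 after TNF and 3344 and 2484 untreated in the double mutant and 3214 and 2798 after TNF and 4043 and 3788 untreated in WT. The double mutant and WT arrays of all 3 genes overlapped.

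Repin1, a zinc finger protein that binds replication origins, was close to even between the lines that carried it. It read 10.7 to 20.5 in the triple mutant, 1453 and 1279 after TNF and 1174 and 1350 untreated in the double mutant and 1475 and 1686 after TNF and 1296 and 1455 untreated in WT. Gnb4, a G protein β subunit, read -7.91 to 15.2 in the triple mutant, 573 and 489 after TNF and 1035 and 703 untreated in the double mutant and 973 and 996 after TNF and 1021 and 1066 untreated in WT.

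Positional transcription factors gave the largest number of members of the 20 lists looked at. Of 103 factors with a probe, 25 met the rest of the rule, and 8 of these 25 (32.0%) were members, beside 1.65% of all genes that met it. They were Tbx3, Osr1, Irx5, Osr2, Meox1, Irx3, Msx1 and En1. The list holds factors that pattern limbs, somites and body wall, and 25 of its 103 genes were above background on all 4 triple mutant arrays, 33 in the double mutant and 42 in WT. TNF responses were counted over the 25 factors that met the rest of the rule. In the double mutant 1 of these rose and 9 fell, where 8.58% of all genes that met it rose and 10.6% fell. In WT 1 rose and 1 fell, where 0.669% of all genes that met it rose and 0.14% fell. The share of the 25 that fell in the double mutant was above that background. It was not particular to this list, since 7 of 11 WNT genes, 4 of 12 retinoid, aldehyde and steroid genes and 9 of 40 growth factor genes also fell. In other lists 1 of 15 adhesion genes fell, and none of 19 imprinted, 12 interferon-stimulated or 9 antigen presentation genes did. Of the 8 members, Osr2 fell and Meox1 rose in the double mutant. These shares were not tested, and the lists were written with earlier results of these data known.

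Tbx3, a T-box repressor of limb and mammary development, was the brightest of them in WT. It read 1.76 to 23.1 in the triple mutant, 1016 and 931 after TNF and 882 and 976 untreated in the double mutant and 2337 and 2886 after TNF and 1432 and 1249 untreated in WT. The double mutant arrays lay below every WT array, and the WT arrays after TNF above the untreated ones. Osr1 and Osr2, odd-skipped zinc finger factors of intermediate mesoderm, limb and palate, went apart. Osr1 read 10.3 to 27.7 in the triple mutant, 282 and 217 after TNF and 347 and 380.1 untreated in the double mutant and 653 and 664 after TNF and 689 and 726 untreated in WT, with all double mutant arrays lower. Osr2 read -15.4 to -5.59 in the triple mutant, 144 and 125 after TNF and 778 and 706 untreated in the double mutant and 258 and 225 after TNF and 485 and 483 untreated in WT, and was lower after TNF in both lines without overlap.

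Irx3 and Irx5, neighbouring Iroquois homeobox genes with no protein-coding gene between them, were both at background in the triple mutant, at -1.75 to 5.29 and -5.71 to 3.49. Irx3 read 1467 and 1181 after TNF and 1751 and 1065 untreated in the double mutant and 308 and 328 after TNF and 284 and 476 untreated in WT, without overlap. Irx5 read 349 and 393 after TNF and 421 and 649.9 untreated in the double mutant and 479.6 and 381 after TNF and 387 and 336 untreated in WT, and overlapped. En1, the engrailed homeobox gene of ventral limb ectoderm, midbrain and dermal precursors, read 1.45 to 7.11 in the triple mutant, 749 and 560.4 after TNF and 806 and 756 untreated in the double mutant and 186 and 168 after TNF and 145 and 156 untreated in WT. Its double mutant arrays were all above its WT arrays. Meox1, a somite homeobox gene, read -18.8 to -10.1 in the triple mutant, 2348 and 2011 after TNF and 627 and 397 untreated in the double mutant and 211 and 349 after TNF and 313 and 548 untreated in WT. Msx1, a homeobox gene of limb and craniofacial mesenchyme, was the least bright of the 8 in the double mutant, with 237 and 171 after TNF and 213 and 147 untreated, against 279 and 254 after TNF and 239 and 226 untreated in WT and -10.8 to -1.08 in the triple mutant.

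**Figure D2:**
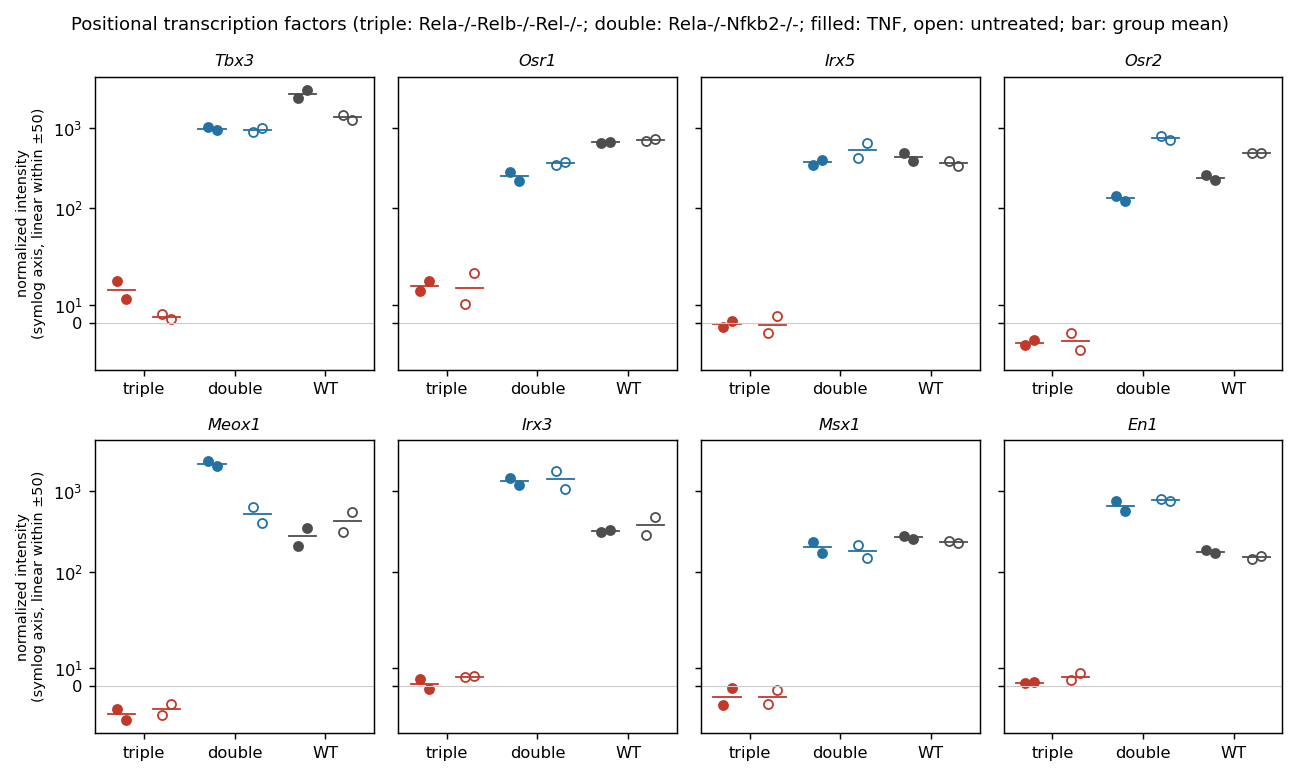
Normalized intensity (vertical axis, logarithmic beyond 50 and linear within 50 of 0) of the 8 positional factors on each array of the triple mutant, the double mutant and WT (filled points after TNF, open points untreated, bars the mean of 2 arrays). No triple mutant point is above 27.7, and Meox1 after TNF in the double mutant (2348 and 2011) stands above its untreated arrays (627 and 397).

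Among ligands and secreted proteins, Gdnf, the neurotrophic factor that acts through Ret, read -18.2 to 6.99 in the triple mutant, 621 and 489 after TNF and 495 and 265 untreated in the double mutant and 3158 and 3982 after TNF and 1893 and 1467 untreated in WT. Vegfc, the growth factor of lymphatic vessels, was brighter in the double mutant, with 0.407 to 7.55 in the triple mutant, 1927 and 2720 after TNF and 1750 and 2100 untreated in the double mutant and 553 and 628 after TNF and 221 and 198 untreated in WT. These were 2 of 40 genes (5.00%) of the growth factor and receptor list that met the rest of the rule. Of all genes that met it, 1.65% were members. Pgf, placental growth factor, read -6.37 to -0.939 in the triple mutant, 72.5 and 137 after TNF and 59.0 and 37.0 untreated in the double mutant and 591 and 714 after TNF and 856 and 791 untreated in WT, and its double mutant level was close to background. From the WNT list 2 of 11 genes (18.2%) were members. Neither share was tested, and 2 members in a list are few. Rspo2, an R-spondin that enhances WNT signalling at the receptor, read -14.6 to 5.21 in the triple mutant, 652 and 458 after TNF and 1178 and 808 untreated in the double mutant and 1597 and 1595 after TNF and 949.8 and 981 untreated in WT. Ccn5, a matricellular protein first named as a WNT1-inducible gene, read -9.73 to 9.52 in the triple mutant, 561 and 363 after TNF and 6476 and 6292 untreated in the double mutant and 451 and 1065 after TNF and 2735 and 3008 untreated in WT, and its TNF arrays were lower than its untreated arrays in both lines.

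Matrix proteins among the members included Tgfbi, a TGFβ-induced adhesion protein, Fbln1, a fibulin of elastic fibres and basement membranes, and Col18a1, the collagen from which endostatin is cut. Tgfbi read -6.58 to 7.82 in the triple mutant, 284 and 219 after TNF and 1388 and 1824 untreated in the double mutant and 2073 and 3275 after TNF and 3657 and 4788 untreated in WT. The member probes of Fbln1 and Col18a1 averaged -6.96 ± 2.55 and 25.5 ± 11.4 in the triple mutant, 370.0 ± 272 and 273 ± 56.0 in the double mutant, and 323 ± 86.1 and 446 ± 166 in WT (SD, n = 4 arrays each). These last 2 were the members among 36 genes (5.56%) of the collagen and matrix list that met the rest of the rule. The share over all genes that met it was 1.65%, and counts this small were not tested against it. The cadherin without a cytoplasmic tail, Cdh13, was the 1 member among 15 genes (6.67%) of the adhesion list, with -7.71 to 3.00 in the triple mutant, 443 and 262 after TNF and 524 and 447 untreated in the double mutant and 1892 and 2228 after TNF and 2387 and 2274 untreated in WT. Adam23, an adhesion protein that binds integrins and LGI1, averaged -7.26 ± 5.73 in the triple mutant, 779.5 ± 114 in the double mutant and 1886 ± 399.9 in WT.

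Proteins of G protein and small GTPase signalling were among the 25 brightest members. Rgs17, which speeds GTP hydrolysis by Gi and Gz subunits, read -1.11 to 3.48 in the triple mutant, 265 and 283 after TNF and 200.2 and 206 untreated in the double mutant and 2526 and 3406 after TNF and 3040 and 3556 untreated in WT. Diras2, a Ras-like GTPase found mainly in neurons, read -3.94 to 31.8 in the triple mutant, 219 and 214 after TNF and 1276 and 1066 untreated in the double mutant and 2484 and 2597 after TNF and 3621 and 3273 untreated in WT. The G protein γ subunit Gng8 averaged -8.62 ± 3.96 in the triple mutant, 274 ± 37.8 in the double mutant and 989 ± 303 in WT. Pde1b, a calcium-dependent phosphodiesterase, averaged -6.09 ± 5.48 in the triple mutant, 242 ± 136 in the double mutant and 1230 ± 269 in WT. All 4 were lower on every double mutant array than on any WT array. This did not hold for all G protein subunits among the members, since the arrays of Gnb4, given above, and of Gng2 overlapped.

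The other bright members had varied functions. Upp1, uridine phosphorylase, averaged 9.94 ± 15.8 in the triple mutant, 478 ± 289 in the double mutant and 2252 ± 1019 in WT. Nes, the intermediate filament nestin, averaged 19.4 ± 8.06 in the triple mutant, 571 ± 279.6 in the double mutant and 2028 ± 250.1 in WT. Apobec1, the cytidine deaminase that edits apolipoprotein B RNA, and Dgat2, which makes triglyceride, averaged 402 ± 142 and 369 ± 104 in the double mutant, and 1050 ± 149 and 967 ± 76.6 in WT. Chst7 (a chondroitin and heparan sulfotransferase of the Golgi), Mtcl1 (a microtubule crosslinking protein) and Evi2a completed the 25, with double mutant means of 611, 444 and 191 and WT means of 1621, 1765 and 1020. Of the remaining lists, Nlrc5, the transactivator of MHC class I genes, was the member among 9 antigen presentation genes (11.1%), with -24.6 to -14.7 in the triple mutant, 411 and 292 after TNF and 243 and 78.7 untreated in the double mutant and 531 and 601 after TNF and 611 and 431 untreated in WT. Crabp1, a cellular retinoic acid binding protein, was the member among 12 genes (8.33%) of retinoid, aldehyde and steroid metabolism, and Dlk1 that among 19 imprinted genes (5.26%).

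NFκB target genes gave 1 member, Ccl5, out of 28 (3.57%) that met the rest of the rule, beside 1.65% of all genes that met it. None of 13 genes of NFκB subunits and inhibitors, of 12 interferon-stimulated genes, or of 23 antioxidant genes that met it was a member. With so low a share over all genes, lists this short cannot show that their genes were spared. The rule asks for presence on the untreated arrays too, so a target gene seen only after TNF cannot be a member. Of the 51 NFκB target genes with a probe, 26 were above background on all 4 triple mutant arrays, 31 in the double mutant and 36 in WT. In all, 87 of the 106 members were on none of the lists.

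Levels of the members differed between the 2 lines that carried them. The median log2 difference, double mutant minus WT over 4 arrays each, was -0.51 over the members and -0.03 over the 6432 genes that met the rest of the rule. The 4 double mutant arrays were all lower than the 4 WT arrays for 42 members (39.6%), beside 15% of those 6432 genes, and all higher for 12 members (11.3%), beside 9.64%. In 52 members the arrays overlapped. The log2 difference was below -1 in 37 members (background 5.63%) and above 1 in 14 (background 3.56%). The WT minimum in the rule bears on this contrast, so the shares are a description.

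**Figure D3:**
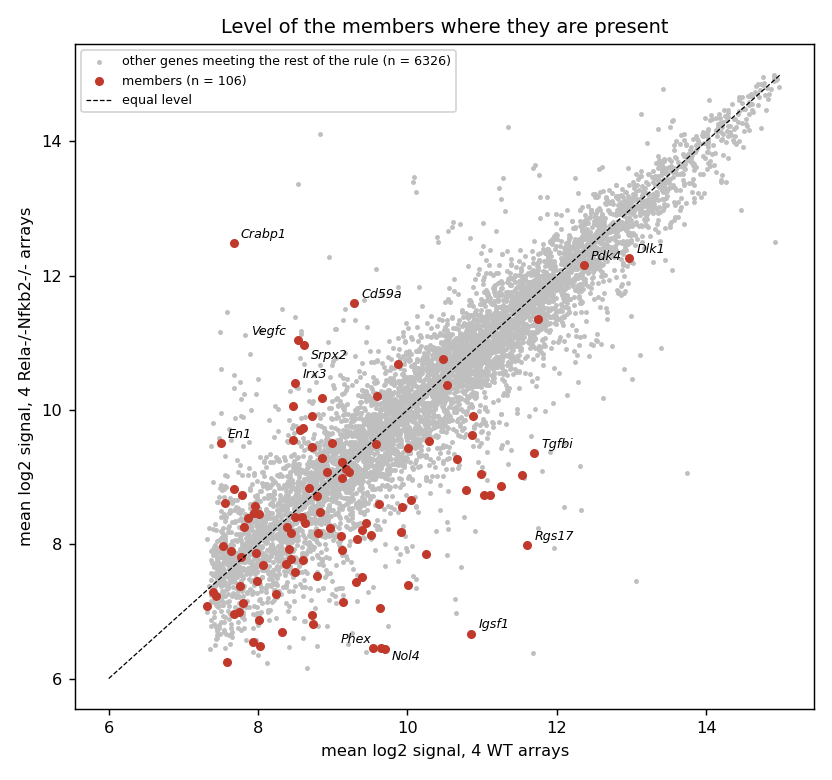
Mean log2 signal over 4 WT arrays (horizontal axis) and over 4 Rela-/-Nfkb2-/- arrays (vertical axis) for the members (red) and for the other genes that met the rest of the rule (grey), with equal levels on the dashed line. Of the members, 74 had the higher mean in WT and 32 in the double mutant.

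The widest gaps ran both ways. Igsf1, a membrane glycoprotein whose loss causes central hypothyroidism in people, read 73.5 and 74.4 after TNF and 112 and 81.5 untreated in the double mutant and 1669 and 1758 after TNF and 2150 and 1828 untreated in WT, a log2 difference of -4.19. Rgs17 (-3.61), Nol4 (-3.26), a nucleolar protein of the nervous system and testis, Phex (-3.18), the bone endopeptidase mutated in human X-linked hypophosphataemia, and Pgf (-3.09) followed. The double mutant levels of Igsf1, Nol4, Phex and Pgf were 85.3, 71.7, 72.4 and 76.4, and their lower bounds against the triple mutant were 1.68-, 1.43-, 1.45- and 1.45-fold. Crabp1 had the opposite order. It read -16.8 to -6.79 in the triple mutant, 5920 and 6640 after TNF and 5269 and 5262 untreated in the double mutant and 143 and 179.6 after TNF and 225 and 206 untreated in WT, a log2 difference of 4.81, and it was the brightest member in the double mutant. Vegfc (2.51), Srpx2 (2.35), a secreted sushi-repeat protein, Cd59a (2.30), an inhibitor of the complement membrane attack complex, and En1 (2.00) were next. Srpx2 read 1783 and 1695 after TNF and 2296 and 2291 untreated in the double mutant and 239.5 and 459.6 after TNF and 344 and 516 untreated in WT, and Cd59a read 2995 and 2561 after TNF and 4711 and 2461 untreated in the double mutant and 544 and 428 after TNF and 962 and 602 untreated in WT.

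The probes nearest to the limits of the rule show how the set was bounded. Just above the WT minimum of 150 were Il17d (152), Rbpj (155) and Sgcd (157), and just below it Edil3 (147), Tmod2 (143) and Tmem267 (139). The lowest detection p-values on a triple mutant array among the members were 0.0501 for Kcnk2 and 0.0514 for Phex and Septin5. Arrb1 and Eid2 (0.0489) and Grem1 (0.0451) were left out for 1 triple mutant array, although Grem1, a BMP antagonist, had a WT mean of 2533. In all 49 genes had a probe that met the rule but for 1 of the 4 triple mutant arrays, among them the member BC028528 by another probe. With the detection limit at 0.01 for presence and 0.10 for absence 61 genes remained, all of them among the 106. A limit of 0.01 for both parts took 138 genes, of which 81 were members, and a limit of 0.10 for both took 91 genes, of which 83 were members. With the untreated arrays alone the rule took 196 genes, 103 of them members.

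Other probes of the same genes gave a second reading. A further 81 probes were annotated to 47 of the member genes, and 40 of them, in 32 genes, were above background on all 4 WT arrays. Of these 40, 28 were above background on no triple mutant array, 5 on 1 to 3 and 7 on all 4. The rule itself was met by 14 of the 28, as second probes of the same members. The other 14, in 11 genes, missed the WT minimum (11 probes) or were not above background on all 4 double mutant arrays (9 probes). Among other probes of non-member genes that met the rest of the rule, which by construction hold no probe that met all of it, 1.77% were above background on no triple mutant array (44 of 2484). By gene, 20 of the 32 had only absent further probes in the triple mutant, 10 only present ones and 2 had both.

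For 7 genes another probe was above background on all 4 triple mutant arrays, so the absence there held for the member probe and not for the gene. All but Plpp3 also had a further probe at background in the triple mutant, which no WT array read above background. Plpp3, a lipid phosphate phosphatase, had a second probe that averaged 1378 in the triple mutant, 6236 in the double mutant and 20640 in WT, while its member probe averaged 24.4 ± 9.69 in the triple mutant, 119 ± 39.5 in the double mutant and 836 ± 362 in WT. The second probe of Gpnmb, a melanosomal and macrophage glycoprotein, averaged 1149 in the triple mutant, 8456 in the double mutant and 6085 in WT. That of Col18a1 averaged 686 in the triple mutant, 8970 in the double mutant and 9786 in WT, and that of Fbln1 229 in the triple mutant, 6631 in the double mutant and 5998 in WT. Klra4, named for a natural killer cell receptor family whose members are near-identical, averaged 383 in the triple mutant, 4294 in the double mutant and 103 in WT on its second probe. Mecom averaged 91.7 in the triple mutant, 224 in the double mutant and 283 in WT, and Tbc1d9 67.7 in the triple mutant, 68.6 in the double mutant and 73.2 in WT. In the brighter cases the direction was the same on both probes, with the triple mutant lowest, except that Klra4 was lowest in WT on the second probe.

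On 5 further genes the other probe was above background on 1 to 3 triple mutant arrays at a low level. Tgfbi averaged 42.6 in the triple mutant on this probe, 4052 in the double mutant and 10468 in WT. Gng2, a G protein γ subunit, averaged 43.0 in the triple mutant, 1283 in the double mutant and 1437 in WT. BC028528 averaged 37.3 in the triple mutant, 702 in the double mutant and 1333 in WT, and Eif4e3 averaged 43.6 in the triple mutant, 500 in the double mutant and 729 in WT. Tbx3 was dim on this probe everywhere, at 29.0 in the triple mutant, 65.6 in the double mutant and 93.9 in WT.

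By position, 4 pairs of members had no protein-coding gene between them: Apobec3 with Cbx7, Gp1bb with Septin5, Irx3 with Irx5 and Tspan6 with Srpx2. Genes that met the rest of the rule formed 2516 such pairs. Gp1bb, a platelet receptor subunit, and Septin5, a cytoskeletal GTPase of exocytosis, lie in tandem, and in human cells their transcripts can run together. Apobec3, a deaminase that restricts retroviruses, averaged 23.1 ± 6.14 in the triple mutant, 110.2 ± 21.3 in the double mutant and 198 ± 36.1 in WT, and Cbx7, a Polycomb subunit, -10.4 ± 3.26 in the triple mutant, 78.3 ± 25.6 in the double mutant and 229.7 ± 45.2 in WT.

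Promoter sequences of the members were compared by their CpG content, which the rule did not use. RefSeq windows of GRCm38.p6, from 250 bases before to 50 bases after the annotated start, were matched to 81 of the 106 genes. Of these 26 had several windows, and the CpG ratio of a gene is the median over its windows, while motifs were counted in any window. The ratio of observed to expected CpG had a median of 0.542 in the members, 0.790 in the 5241 other genes that met the rest of the rule and had a window, and 0.389 over all 27025 genes of the table. A ratio of at least 0.6 was found in 37 members (45.7%), in 78.8% of those other genes and in 35.6% of all genes. By the highest window of each gene it was found in 46 members (56.8%), in 83.7% of those other genes and in 38.4% of all genes. The κB consensus, searched on both strands, occurred in the windows of 2 members (2.47%), Ankrd6 and BC028528, in 6.13% of the other genes and in 5.14% of all genes. The letters TATAAA, on either strand, occurred in 11 members (13.6%), in 8.24% of the other genes and in 15.7% of all genes. A match of letters is not evidence of binding, and no match speaks only of these 300 bases. The windows of 5 members are printed to show the range from CpG-poor to CpG-rich, 5′ to 3′ on the strand of the gene, with each CG in capitals.
Ppbp, chr5:90768268-90768567, plus strand, 3 CpG, ratio 0.169: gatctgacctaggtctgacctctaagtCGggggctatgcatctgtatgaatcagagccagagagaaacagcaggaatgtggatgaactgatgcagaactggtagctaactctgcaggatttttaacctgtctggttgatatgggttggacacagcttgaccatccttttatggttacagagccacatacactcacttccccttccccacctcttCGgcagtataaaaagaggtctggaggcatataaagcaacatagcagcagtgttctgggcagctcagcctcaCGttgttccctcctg
Dlk1, chr12:109452573-109452872, plus strand, 9 CpG, ratio 0.427: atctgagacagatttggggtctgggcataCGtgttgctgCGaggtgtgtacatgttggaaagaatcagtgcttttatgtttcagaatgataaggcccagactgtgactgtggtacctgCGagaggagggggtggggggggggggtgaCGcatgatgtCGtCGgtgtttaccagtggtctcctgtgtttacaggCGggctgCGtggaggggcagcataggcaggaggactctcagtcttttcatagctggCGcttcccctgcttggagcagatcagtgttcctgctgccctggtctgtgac
Crabp1, chr9:54764498-54764797, plus strand, 17 CpG, ratio 0.543: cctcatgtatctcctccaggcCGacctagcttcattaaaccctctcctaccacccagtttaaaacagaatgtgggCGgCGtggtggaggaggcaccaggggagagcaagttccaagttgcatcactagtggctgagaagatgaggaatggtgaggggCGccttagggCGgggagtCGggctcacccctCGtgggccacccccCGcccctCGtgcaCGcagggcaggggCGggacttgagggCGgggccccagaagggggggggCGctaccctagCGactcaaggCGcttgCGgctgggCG
Irx3, chr8:91801605-91801904, minus strand, 14 CpG, ratio 0.748: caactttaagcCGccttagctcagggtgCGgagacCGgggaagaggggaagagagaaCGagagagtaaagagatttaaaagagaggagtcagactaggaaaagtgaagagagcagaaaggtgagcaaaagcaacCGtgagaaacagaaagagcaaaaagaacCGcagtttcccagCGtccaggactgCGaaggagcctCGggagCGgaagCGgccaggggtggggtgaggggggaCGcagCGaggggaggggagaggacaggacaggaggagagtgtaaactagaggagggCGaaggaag
En1, chr1:120602237-120602536, plus strand, 23 CpG, ratio 0.948: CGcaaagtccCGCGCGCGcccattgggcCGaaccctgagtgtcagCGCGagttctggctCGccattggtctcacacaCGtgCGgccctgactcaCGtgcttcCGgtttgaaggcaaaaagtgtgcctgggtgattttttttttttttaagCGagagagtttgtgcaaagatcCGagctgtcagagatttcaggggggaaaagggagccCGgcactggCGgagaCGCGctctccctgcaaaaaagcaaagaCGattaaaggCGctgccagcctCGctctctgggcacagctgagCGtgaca
The window of Ppbp, a platelet chemokine, holds TATAAA at 2 places and only 3 CpG, while that of En1 holds 23 CpG and runs of CG near its start. None of these 5 windows holds the κB consensus.

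**Figure D4:**
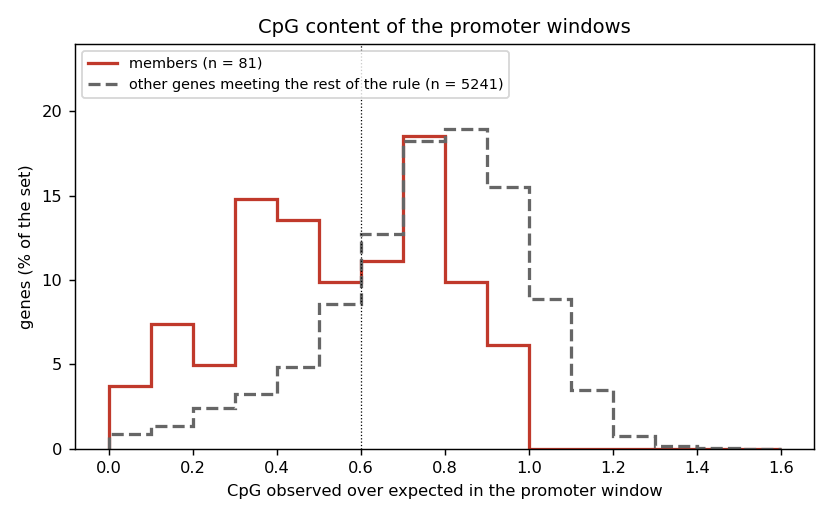
Share of genes (vertical axis, percent of the set) by observed over expected CpG in the promoter window, the median where a gene has several (horizontal axis, bins of 0.1) for 81 members (solid) and 5241 other genes that met the rest of the rule (dashed), with the ratio of 0.6 as a dotted line. The members lie further to the left, with 45.7% at or above 0.6 against 78.8%.

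In the fit of all 12 arrays, TNF changed 9 of the members in WT and 40 in the double mutant. The tests were made with limma on all 13387 probes that 1 group or more had above background on both its arrays, with Benjamini-Hochberg adjustment over all of them and a threshold of 0.05. In WT 7 members rose and 2 fell, 8.49% of the 106, where 1.1% of all probes passed (0.829% rose and 0.269% fell) and 0.808% of the genes that met the rest of the rule (0.669% rose and 0.14% fell). In the double mutant 18 rose and 22 fell (37.7%), where 18.2% of all probes passed (7.9% rose and 10.3% fell) and 19.2% of those genes (8.58% rose and 10.6% fell). The response itself differed between the lines for 16 members (15.1%), 4 with a higher and 12 with a lower log2 change in the double mutant than in WT, where 3.11% of all probes passed (0.844% higher and 2.27% lower) and 2.41% of those genes (0.855% higher and 1.55% lower). The median log2 change of the members was -0.08 in the double mutant and -0.11 in WT, close to the 0.03 and -0.03 of all probes. In the triple mutant the member probes gave no response that could be read, since both groups were at background. Those arrays still enter the spread that the fit shares, and the rule chose the members by their background values there. The shares of the members and of the other probes are therefore not on equal terms, and no excess is read from them. Without the 7 members that had a WT group under the minimum, 6 rose and 2 fell in WT, 15 rose and 21 fell in the double mutant, and 15 differed.

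The counts depended on the arrays in the fit. With the 4 arrays of 1 line alone, 12 members passed in the double mutant (of all probes 91 rose and 235 fell) and 17 in WT (of all probes 269 rose and 155 fell), so the order of the lines turned round. Over all tested probes the spread between replicates was wider in the mutants than in WT. The members lie at background in the triple mutant, so this need not hold for them, and the cause of the turn was not tested. In WT the count of members fell to 1 without either untreated WT array, and to 4 and 2 without replicate 1 or 2 after TNF. It fell to 3 without either untreated array of the triple mutant, which enters through the shared spread. In the double mutant 26 passed without its TNF replicate 2. For the difference 5 passed without either untreated WT array, 8 and 7 without WT TNF replicate 1 or 2, and 10 and 4 without double mutant TNF replicate 1 or 2. With arrays paired by replicate number within genotype (the replicate block), 15 members passed in WT (11 rose and 4 fell) and 31 in the difference (12 higher and 19 lower), and no call was lost. Under median scaling, which moved the median change of all probes to -0.24 in the double mutant and to -0.22 in WT, 10 rose and 34 fell in the double mutant, and 1 rose and 1 fell in WT.

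**Figure D5:**
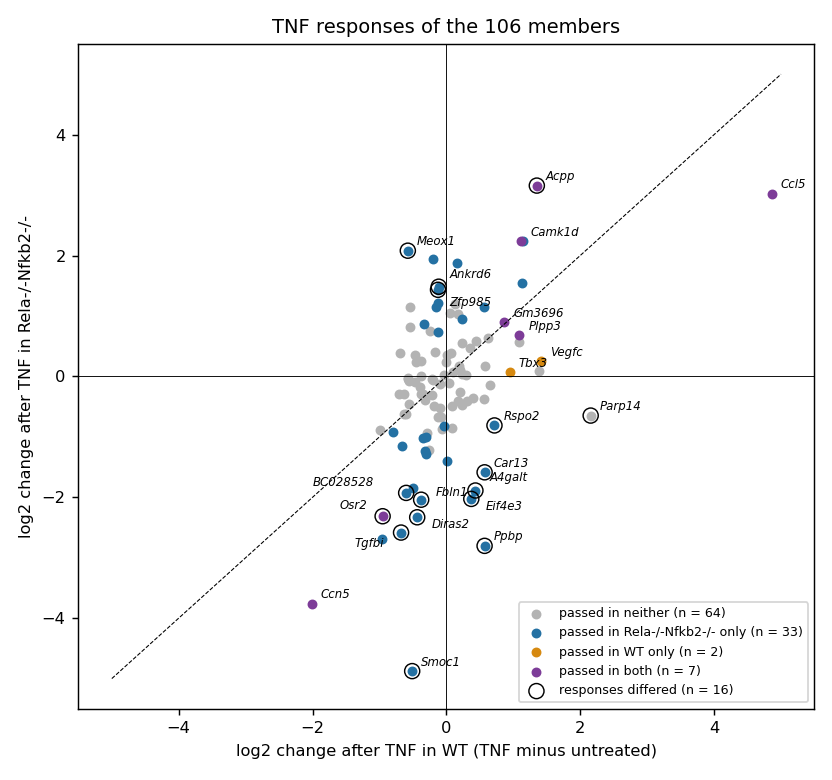
Log2 change after TNF in WT (horizontal axis) and in Rela-/-Nfkb2-/- cells (vertical axis) of the 106 members, from 2 arrays in each group, coloured by the line in which the change passed, with a ring where the 2 changes differed. The 7 members that passed in both lie in the same direction in both, and 12 of the 16 ringed genes lie below the dashed line of equal change.

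The 7 members that passed in both lines moved the same way in each. Ccl5, the chemokine RANTES and a known NFκB target, rose most in WT. It read 3955 and 5616 after TNF and 337 and 932 untreated in the double mutant and 3991 and 6465 after TNF and 146 and 168 untreated in WT, with -6.86 to 37.6 in the triple mutant. The log2 change was 3.02 ± 0.43 (SE, adjusted p = 0.00222) in the double mutant and 4.86 ± 0.43 (SE, adjusted p = 0.000924) in WT, and it was the 1 call in WT that held with each of the 12 arrays left out in turn. The changes of Ccl5 did not pass as different (log2 difference -1.84 ± 0.61 (SE, adjusted p = 0.167); 0.0272 with the replicate block).

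Acpp, prostatic acid phosphatase, rose in both, with 1761 and 1783 after TNF and 211 and 157 untreated in the double mutant and 687 and 1116 after TNF and 317 and 344 untreated in WT. Its log2 change was 3.16 ± 0.23 (SE, adjusted p = 6.01e-05) in the double mutant and 1.35 ± 0.23 (SE, adjusted p = 0.0287) in WT, and the difference of 1.81 passed. Camk1d, a calmodulin-dependent kinase, read 479 and 506 after TNF and 99.0 and 83.0 untreated in the double mutant and 289.9 and 427 after TNF and 150.4 and 154 untreated in WT, with log2 changes of 2.24 ± 0.21 (SE, adjusted p = 0.000253) in the double mutant and 1.12 ± 0.21 (SE, adjusted p = 0.0477) in WT. The member probe of Plpp3 changed by 0.68 in the double mutant and by 1.09 in WT on the log2 scale, and Gm3696 by 0.90 in the double mutant and 0.87 in WT. Ccn5 and Osr2 fell in both. For Ccn5 the log2 change was -3.76 ± 0.35 (SE, adjusted p = 0.000231) in the double mutant and -2.02 ± 0.35 (SE, adjusted p = 0.0317) in WT, and for Osr2 -2.31 ± 0.15 (SE, adjusted p = 3.74e-05) in the double mutant and -0.95 ± 0.15 (SE, adjusted p = 0.0201) in WT.

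In WT alone, Vegfc and Tbx3 passed. Vegfc changed by 1.42 ± 0.19 (SE, adjusted p = 0.00984) in WT and by 0.25 ± 0.19 (SE, adjusted p = 0.406) in the double mutant, where its untreated level of 1750 and 2100 was already above the WT level after TNF. Tbx3 changed by 0.95 ± 0.17 (SE, adjusted p = 0.0361) in WT and by 0.07 ± 0.17 (SE, adjusted p = 0.831) in the double mutant. For neither did the difference pass (adjusted p = 0.0592 for Vegfc and 0.088 for Tbx3), so a change particular to WT was not shown. With the block the difference of Vegfc passed (adjusted p = 0.0233).

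The strongest fall in the double mutant was that of Smoc1, a secreted calcium-binding antagonist of BMP signalling. It read 64.6 and 45.3 after TNF and 2339 and 1894 untreated in the double mutant and 158 and 124 after TNF and 262 and 163 untreated in WT, and -3.43 to 11.2 in the triple mutant. After TNF the double mutant was near background, a log2 change of -4.88 ± 0.25 (SE, adjusted p = 1.46e-05), and in WT the change was -0.51 ± 0.25 (SE, adjusted p = 0.571). Ppbp, the platelet chemokine CXCL7, read 294 and 160.4 after TNF and 1984 and 1344 untreated in the double mutant and 753 and 396 after TNF and 428 and 305 untreated in WT, with log2 changes of -2.80 ± 0.36 (SE, adjusted p = 0.00134) in the double mutant and 0.57 ± 0.36 (SE, adjusted p = 0.72) in WT. Tgfbi, with the values given above, changed by -2.58 ± 0.26 (SE, adjusted p = 0.00036) in the double mutant and by -0.68 ± 0.26 (SE, adjusted p = 0.401) in WT. Diras2 changed by -2.33 ± 0.25 (SE, adjusted p = 0.000499) in the double mutant and -0.44 ± 0.25 (SE, adjusted p = 0.674) in WT. BC028528 changed by -1.93 ± 0.15 (SE, adjusted p = 9.51e-05) in the double mutant and -0.60 ± 0.15 (SE, adjusted p = 0.134) in WT, and Fbln1 by -2.04 ± 0.23 (SE, adjusted p = 0.000701) in the double mutant and -0.38 ± 0.23 (SE, adjusted p = 0.704) in WT. For each of these 6 the difference between the lines passed.

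Mme, the membrane endopeptidase neprilysin, fell by 2.70 on the log2 scale in the double mutant, where it read 141 and 71.4 after TNF and 933 and 610.4 untreated, against 215 and 534 after TNF and 457 and 1014 untreated in WT. Its difference between the lines did not pass (adjusted p = 0.254). With the replicate block it did (adjusted p = 0.00423), as did its change of -0.96 in WT (adjusted p = 0.0196). Eif4e3, a cap-binding protein, read 114 and 72.5 after TNF and 600.1 and 302 untreated in the double mutant and 356 and 401 after TNF and 281 and 295 untreated in WT. Car13, a cytosolic carbonic anhydrase, read 703 and 608 after TNF and 2464 and 1628 untreated in the double mutant and 448 and 664 after TNF and 326 and 397 untreated in WT. A4galt, the synthase of the glycolipid Gb3, read 197 and 139.7 after TNF and 565 and 785 untreated in the double mutant and 234 and 305 after TNF and 221 and 169 untreated in WT. In each of these 3 the double mutant fell while the WT changes of 0.37, 0.57 and 0.43 did not pass, and the differences of -2.40, -2.16 and -2.32 passed. Parp14, an ADP-ribosyltransferase of interferon responses, passed for the difference alone. It read 788 and 372 after TNF and 1348 and 549 untreated in the double mutant and 808 and 948 after TNF and 172 and 190.5 untreated in WT, and its log2 change was -0.65 ± 0.41 (SE, adjusted p = 0.319) in the double mutant and 2.16 ± 0.41 (SE, adjusted p = 0.0522) in WT (0.000499 in WT with the block). Rspo2, with the values given above, changed by -0.81 ± 0.22 (SE, adjusted p = 0.0358) in the double mutant and by 0.72 ± 0.22 (SE, adjusted p = 0.266) in WT, and its difference of -1.53 passed.

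Of the members that rose in the double mutant, Meox1 had the widest difference from WT. Its log2 change was 2.08 ± 0.32 (SE, adjusted p = 0.00286) in the double mutant and -0.58 ± 0.32 (SE, adjusted p = 0.655) in WT. Ankrd6, a regulator that turns WNT signals toward planar polarity, read 665 and 601 after TNF and 272 and 167 untreated in the double mutant and 779 and 709 after TNF and 865 and 753 untreated in WT, and Zfp985, a zinc finger protein, read 420.0 and 524 after TNF and 185 and 142 untreated in the double mutant and 618 and 634 after TNF and 666 and 705 untreated in WT. The log2 changes were 1.48 ± 0.22 (SE, adjusted p = 0.00258) and 1.43 ± 0.17 (SE, adjusted p = 0.00103) in the double mutant, and -0.11 ± 0.22 (SE, adjusted p = 0.98) and -0.13 ± 0.17 (SE, adjusted p = 0.955) in WT, and both differences passed. Untreated double mutant cells held less of both than any WT array, and after TNF their levels came nearer to those in WT. Rbpj, the DNA-binding effector of Notch, read 459.9 and 164 after TNF and 41.8 and 47.1 untreated in the double mutant and 193 and 248 after TNF and 93.0 and 86.7 untreated in WT, and the double mutant change was 2.24 ± 0.36 (SE, adjusted p = 0.00396). Adm, the vasodilator adrenomedullin, read 1875 and 2854 after TNF and 388 and 877 untreated in the double mutant and 634 and 779.7 after TNF and 790.0 and 828 untreated in WT, a log2 change of 1.95 ± 0.36 (SE, adjusted p = 0.00744) in the double mutant and -0.20 ± 0.36 (SE, adjusted p = 0.979) in WT.

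In all 42 members passed in the TNF response of at least 1 line and 64 in neither, among them Parp14, which passed for the difference. Among the 16 differences, those of Smoc1 and A4galt passed with each of the 12 arrays left out. Of the 40 calls in the double mutant, 22 held with any 1 array left out. Dlk1, Pdk4, Tspan6 and Repin1, among the brightest members, passed in neither line without the block, with log2 changes of 1.04, 0.35, -0.30 and 0.11 in the double mutant and 0.05, -0.47, -0.38 and 0.20 in WT. With the replicate block the change of Dlk1 in the double mutant passed (adjusted p = 0.0364).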

How the data were processed

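The authors deposited, per the file headers, a signal for each probe and array, which is the intensity averaged over a probe's beads without normalization, and a detection p-value, both from the GenomeStudio software (version: not given in the sources used here). Also deposited by the authors was a background-subtracted, quantile-normalized intensity, linear and with values below 0, made by a service company. Quantile normalization removes a shift common to most genes. No genome build belongs to the array, and promoter windows and neighbours come from RefSeq tables of GRCm38.p6, to which all 106 members were matched.

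The rule read the deposited detection p-values and normalized intensities, and levels in the text are the latter. The TNF responses were tested on the signals with limma 3.58.1 (R 4.3.3). Background correction by neqc drew on the detection p-values and was followed by an offset of 16, quantile normalization and log2. Fold changes are on this scale, and the offset pulls those of dim probes toward 0. A model with 1 mean for each of the 6 groups was fitted to 12 arrays and 13387 probes (6 residual and 2.92 prior degrees of freedom), adjusted by Benjamini-Hochberg at 0.05. With 2 arrays in a group, their number limits the precision. The members, gene lists and tests were chosen with earlier results of these data known.

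Named were the 25 members brightest in WT, up to 10 members per test by smallest adjusted p, up to 5 per list, the 5 widest differences each way between the mutant and WT, neighbouring pairs, members with another probe seen in the triple mutant, the probes at the limits and the targeted genes. The remaining members with a difference in TNF response, and Mme, Adm and Msx1, were named after their values were seen.

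Whether replicate numbers pair the arrays was checked from the data. The TNF and untreated arrays of the same number departed from their group means together, with a correlation of 0.694 in the triple mutant, 0.675 in the double mutant and 0.292 in WT, and of 0.629 to 0.853 between the mutant lines. The labels do not state a pairing. Alternatives covered the background correction, normalization, offset, filters, probes per gene, the trend and robust options, a fit of the compared groups alone, the block, the methods' t-test and each array left out. The code was tested on simulated data.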

Additional observations from a re-analysis of the deposited data

Results flagged for a closer look

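For 16 members the TNF response differed between the double mutant and WT by a test of the difference itself (limma, adjusted p under 0.05, 2 arrays in each group). The log2 change in the double mutant minus that in WT was -4.37 for Smoc1, -3.37 for Ppbp, -2.80 for Parp14, -2.40 for Eif4e3, -2.32 for A4galt and -2.16 for Car13. It was -1.91 for Tgfbi, -1.90 for Diras2, -1.66 for Fbln1, -1.53 for Rspo2, -1.36 for Osr2 and -1.33 for BC028528. It was 2.66 for Meox1, 1.81 for Acpp, 1.60 for Ankrd6 and 1.56 for Zfp985. With 1 array left out the highest adjusted p was 0.00406 for Smoc1 and 0.0481 for A4galt, and for the other 14 it lay between 0.0611 (Ppbp) and 0.163 (Parp14). Groups of 2 arrays are too small to look for single outlying arrays.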

How the results depend on the processing

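The number of members moved to 61 with detection limits of 0.01 for presence and 0.10 for absence and to 196 with the untreated arrays alone, and ran from 105 to 142 with 1 array left out, the highest without triple mutant TNF replicate 1. For the TNF response in WT, against 9 members that passed, 2 passed under median scaling, 17 in a fit of the compared groups alone, 15 with the replicate block within genotype, 0 by the methods' t-test after adjustment (12 up and 9 down at an unadjusted p under 0.05, and 17 up and 15 down by limma), and 1 to 10 with 1 array left out. For the response in the double mutant, against 40, 12 passed in the fit of the compared groups alone, 0 by the methods' t-test after adjustment (13 up and 16 down unadjusted, and 27 up and 34 down by limma), and 26 to 42 with 1 array left out, the lowest without its TNF replicate 2. For the difference between the lines, against 16, 10 passed under median scaling, 8 in the fit of the compared groups alone, 31 with the replicate block and 4 to 18 with 1 array left out; the methods' t-test gives no such difference. With the replicate block 6 further members passed in WT, 19 in the double mutant (59 in all) and 15 in the difference, and no call was lost. The other alternatives kept the counts within 1.5 times of those reported, and no member that passed changed direction under any alternative. The median level difference of the members, double mutant minus WT, was -0.58 to -0.42 on the log2 scale over its alternatives. The causes were not tested. Dim probes give only bounds in the triple mutant, and 2 arrays in a group limit every TNF test.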
